A study of Canis lupus familiaris with 24 samples.

Results

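MDCK-II is a subline of Madin-Darby canine kidney cells, an epithelial line from dog kidney that grows as a polarised sheet sealed by tight junctions. The libraries described here are 3 from MDCK-II cells treated with TGFb for 4 days, which the submitters label partial EMT, and 3 from untreated MDCK-II cells of the same day, which they label epithelial. These 6 were chosen by cell line, treatment and day, out of 24 stranded mRNA libraries in the study. The others are MDCK-II at day 0, untreated and TGFb-treated MDCK-NBL2 cells, a second subline, and treated MDCK-NBL2 cells with a control siRNA or an siRNA against PRRX1. Both groups compared are the same line with no other agent named in the labels, and they differ only in TGFb. Replicates carry numbers from 1 to 3, and since the labels leave it unsaid if each is a culture of its own, p-values reflect only the spread among these libraries.

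TGFb is a secreted cytokine whose receptors, a pair of serine/threonine kinases, phosphorylate SMAD transcription factors that then enter the nucleus. In epithelial cells it is a classical inducer of epithelial-mesenchymal transition (EMT), in which factors of the SNAI, ZEB and PRRX families repress junction genes and the cell turns to matrix, integrin and contractile genes. The same signal arrests the division of most epithelial cells. A partial EMT is a state in which mesenchymal genes come on while epithelial genes are still expressed, and renal tubule cells are known to enter such a state in fibrosis.

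Total counts were 12263296, 27123727 and 8019068 in untreated replicates 1, 2 and 3 and 10832291, 27500500 and 8991167 in the treated ones. The first principal component held 64.1% of the variance and separated the untreated libraries (-49.8 to -43.8) from the treated ones (37.7 to 51.1). Untreated replicate 1 stood apart on the second component, which held 22.5%, at 51.3 with the other untreated libraries at -28.8 and -23.0. Treated replicate 1 lay on the same side at 17.9, and the fit compares libraries within replicate numbers. Renal epithelial markers were expressed: 8 of 10 were in the table, none at 0, and their levels summed to 3562 to 5384 CPM untreated and 3766 to 5240 CPM with TGFb. Of the markers of other cell types, the fibroblast genes DCN, LUM and FAP and the leukocyte genes PTPRC and CD3E had no count in any of the 6 libraries. Levels are given as CPM, counts per 1000000 after scaling of library sizes, in replicates 1, 2 and 3 in that order. Changes are log2 fold changes ± SE, TGFb against untreated within replicates, from edgeR's quasi-likelihood test with Benjamini-Hochberg adjustment over all genes tested. "Rose" and "fell" are used only of genes with an adjusted p under 0.05.

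TGFb changed a broad part of the transcriptome. Of 11708 genes tested, 3327 were called (28.4%), 1835 as rises (15.7%) and 1492 as falls (12.7%), and every called gene moved the same way in all 3 replicate pairs. The extremes lay among the rises: 138 genes rose at least 8-fold and 15 fell as much. The shares of 28.4%, 15.7% and 12.7%, and the median of -0.01 over all genes tested, are the background for the gene groups below. A gene with almost no untreated counts passes the filter on low counts only through its treated libraries, so it can hardly be called a fall. The reverse holds for a gene almost absent with TGFb. List counts and medians include such members, among them ACTA2, CNN2, CALD1, WNT5A, WNT5B, CXCR4, ACKR3, IL1A, SLC22A2 and, for falls, TIMP1 and ITGA7. In 4790 genes, or 40.9%, the 3 untreated and 3 treated libraries did not overlap. That held for 3009 of the 3327 called genes, so a lack of overlap is common to most calls. The number of calls was 5949 without replicate 1 and 1317 without replicate 3. In bulk RNA, fewer cells of a type and less RNA per cell cannot be told apart.

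The largest rises included a secreted matrix protein, a collagenase, a Wnt ligand, a keratin, a transporter, a muscle-type adaptor and a decoy receptor. Largest rises and falls were taken among called genes with a symbol and a mean of 10 CPM or more in either group. The groups also had to show no overlap, so their separation is a condition of the choice. TGFBI, a matrix protein named for its induction by TGFb, was at 2.97, 7.01 and 7.12 CPM untreated and 2497, 3449 and 3714 CPM with TGFb. MMP13, a collagenase, was at 0.837, 4.58 and 4.83 CPM untreated and 881, 1842 and 1031 CPM with TGFb. In both genes every treated library lay far above every untreated one. The log2 fold changes were 9.19 ± 0.22 (adjusted p = 5e-05) for TGFBI and 8.64 ± 0.39 (adjusted p = 2e-04) for MMP13. BAMBI, a pseudoreceptor that blocks TGFb and BMP signalling, was at 1.14, 2.08 and 2.29 CPM untreated and 178, 265 and 281 CPM with TGFb, a change of 7.04 ± 0.14 (adjusted p = 4.3e-05). The Wnt ligand WNT5B rose from 0.304, 0.104 and 0.362 to 36.4, 59.1 and 41.5 CPM. Its change was 7.84 ± 0.34 (adjusted p = 2e-04), and the groups were far apart.

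A further 3 large rises started from almost no counts, so their folds are limited by counting. KRT27, a keratin known from hair follicles, had no count untreated and 38.7, 12.8 and 14.9 CPM with TGFb, at least 323-fold higher with 3 counts over the untreated group taken as the floor. SLC22A2, an organic cation transporter of the kidney tubule, had 1 untreated count, a ratio of 579 (exact 95% interval 103 to 22915, counting error only). PDLIM3, an adaptor of muscle Z-discs, also had 1 untreated count, a ratio of 389 (exact 95% interval 69.3 to 15395, counting error only). All 3 were called, at adjusted p-values of 0.00092, 0.00036 and 0.00038.

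The largest falls under the same conditions included both tryptophan-degrading enzymes of the IDO family. IDO1 was at 136, 311 and 302 CPM untreated and 7.35, 14.9 and 2.86 CPM with TGFb and fell by 4.89 ± 0.46 (adjusted p = 0.0017). IDO2 was at 94.9, 89.9 and 82.3 CPM untreated and 19.2, 17.9 and 9.16 CPM with TGFb and fell by 2.56 ± 0.19 (adjusted p = 0.00081). TIMP1, an inhibitor of matrix metalloproteinases, was at 3.35, 15.1 and 12.7 CPM untreated and 0.191, 0.583 and 0.357 CPM with TGFb and fell by 4.70 ± 0.28 (adjusted p = 0.00045). The choice of these genes required all treated libraries to lie below all untreated ones. The lung surfactant lectin SFTPD was at 88.6, 58.1 and 65.9 CPM untreated and 8.59, 4.86 and 4.88 CPM with TGFb and fell by 3.55 ± 0.13 (adjusted p = 0.00013). FGFBP1, a carrier that releases FGF from matrix, was at 192, 166 and 138 CPM untreated and 49.7, 6.73 and 8.92 CPM with TGFb, with treated replicate 1 well above the others. It fell by 3.46 ± 0.53 (adjusted p = 0.007). APOBEC1, a cytidine deaminase, fell by 2.73 ± 0.20 (adjusted p = 0.00081), MYRF, a membrane-bound transcription factor, fell by 2.41 ± 0.24 (adjusted p = 0.002), and EVA1C fell by 2.53 ± 0.50 (adjusted p = 0.015).

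EMT transcription factors are the switch genes of the transition, and 7 of the 9 tested rose while none fell, against 15.7% and 12.7% of all genes. ZEB1, a repressor of epithelial genes, was at 0.533, 1.21 and 1.21 CPM untreated and 7.45, 14.1 and 10.6 CPM with TGFb (log2 change 3.48 ± 0.23, adjusted p = 0.00063). The paired-related homeobox factor PRRX2 was at 2.36, 2.39 and 2.29 CPM untreated and 12.98, 15.2 and 10.8 CPM with TGFb (log2 change 2.49 ± 0.19, adjusted p = 0.00086). PRRX1, its paralogue and the target of the siRNA in the other subline, was at 0.533, 1.08 and 1.45 CPM untreated and 4.01, 6.22 and 3.21 CPM with TGFb (log2 change 2.24 ± 0.38, adjusted p = 0.0099). None of these 3 overlapped between groups. SNAI1, a zinc finger repressor of E-cadherin, was at 2.28, 8.02 and 5.31 CPM untreated and 11.6, 15.7 and 11.5 CPM with TGFb (log2 change 1.40 ± 0.29, adjusted p = 0.017). SNAI2, its paralogue, was at 8.45, 50.9 and 46.7 CPM untreated and 52.1, 128 and 101 CPM with TGFb (log2 change 1.63 ± 0.29, adjusted p = 0.011). In both, untreated replicate 1 was the lowest library, and for SNAI2 the treated replicate 1 lay only just above the untreated replicates 2 and 3. The E-protein TCF3 was at 36.6, 26.5 and 26.1 CPM untreated and 47.1, 39.5 and 38.3 CPM with TGFb (log2 change 0.50 ± 0.10, adjusted p = 0.018) and SOX4 at 39.7, 19.5 and 16.8 CPM untreated and 58.2, 42.3 and 35.9 CPM with TGFb (log2 change 0.91 ± 0.15, adjusted p = 0.0081). For SOX4 the groups overlapped, and it rose within each pair. SOX9, a factor of kidney repair, was at 136, 160.5 and 154 CPM untreated and 143, 179 and 122 CPM with TGFb (log2 change -0.03, adjusted p = 0.87), and FOXC2 was at 2.66, 3.54 and 3.14 CPM untreated and 2.005, 2.41 and 2.86 CPM with TGFb (log2 change -0.39, adjusted p = 0.28), both with overlapping groups.

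Some of these calls rested on the pairing. Without the replicate block, 3 of the 9 were called (ZEB1, PRRX1 and PRRX2), and adjusted p-values were 0.062 for SNAI1, 0.15 for SNAI2, 0.079 for TCF3 and 0.12 for SOX4. TCF3 had an adjusted p of 0.1 without replicate 2 and 0.16 without replicate 3. In the fit of all 24 libraries, which also has no block, the adjusted p was 0.15 for PRRX1, 0.13 for SNAI2 and 0.22 for SOX4. Of the list's 16 genes, 15 were in the table. ZEB2, too low to be tested, had 1 untreated count and 49 with TGFb, a ratio of 55.2 (exact 95% interval 9.45 to 2224, counting error only). TWIST2 and GSC had no count, TCF4 and KLF8 had at most 2 counts in a group, and SNAI3 stayed under the filter.

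**Figure D1:**
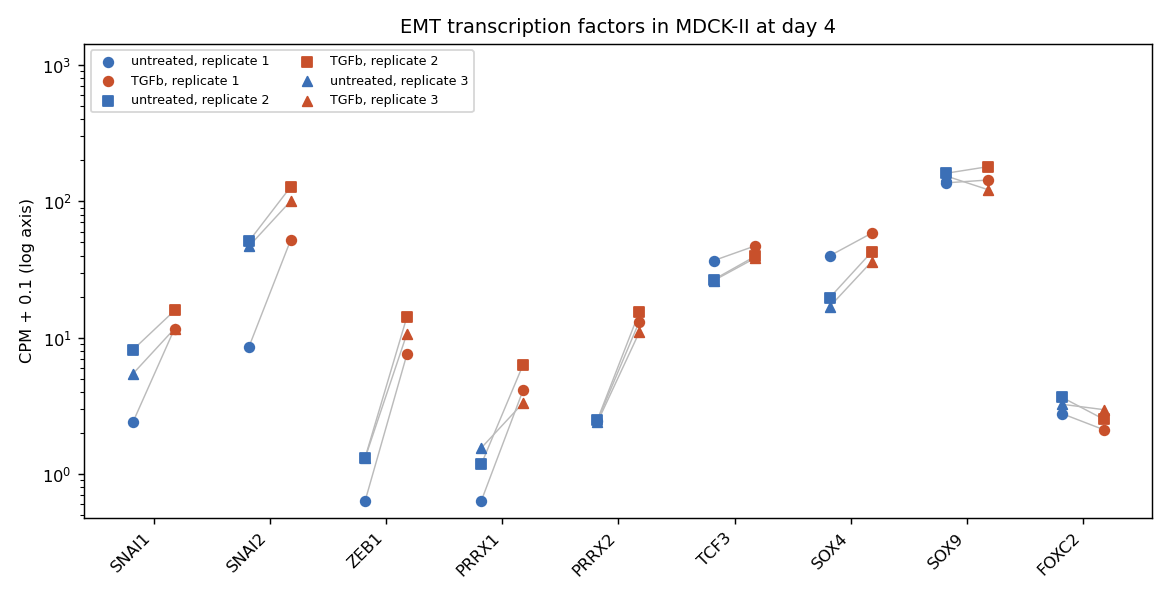
Levels of the 9 tested EMT transcription factors, as CPM with a small constant added on a log axis, in the 3 untreated (blue) and 3 TGFb-treated (red) libraries, with the symbol giving the replicate and a line joining each pair. All 3 lines rise for SNAI1, SNAI2, ZEB1, PRRX1, PRRX2, TCF3 and SOX4, while SOX9 and FOXC2 overlap between groups.

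In the TGFb pathway itself most ligands and inhibitors rose, and the core receptors were not called in the fit reported here. All 11 tested ligands and latent binding proteins were called, 10 as rises, with a median of 1.61. BMP4, a bone morphogenetic protein, was at 33.8, 38.1 and 33.3 CPM untreated and 171, 185 and 187 CPM with TGFb (log2 change 2.37 ± 0.10, adjusted p = 0.00018). BMP7, a ligand known to oppose TGFb in the kidney, was at 41.1, 44.1 and 48.2 CPM untreated and 126, 136 and 144 CPM with TGFb (log2 change 1.61 ± 0.09, adjusted p = 4e-04). Both ligands had tight replicates and a wide gap between groups. LTBP1, which tethers latent TGFb to the matrix, was at 712, 756 and 761 CPM untreated and 2215, 2471 and 2588 CPM with TGFb (log2 change 1.70 ± 0.10, adjusted p = 4e-04). Named after their values were seen, TGFB2 rose by 2.29 ± 0.15 (adjusted p = 0.00058) and BMP2 by 1.64 ± 0.19 (adjusted p = 0.0031), and LTBP4, the single member that went the other way, fell by 1.77 ± 0.17 (adjusted p = 0.0018).

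Among 16 tested receptors and SMADs, 4 rose and 2 fell, with a median of 0.00. The share called was 37.5%, against 28.4% of all genes. The BMP type receptors ACVR1 and BMPR2 rose by 0.93 ± 0.12 (adjusted p = 0.0037) and 1.03 ± 0.17 (adjusted p = 0.0095), while the activin receptor ACVR1B was at 12.6, 6.35 and 6.04 CPM untreated and 3.63, 2.49 and 2.38 CPM with TGFb and fell by 1.504 ± 0.21 (adjusted p = 0.0053). The core receptors, chosen after their values were seen, were not called: TGFBR1 was at a log2 change of 0.34 (adjusted p = 0.064) and TGFBR2 at a log2 change of -0.06 (adjusted p = 0.65). TGFBR1 was called as a rise without replicate 1 (adjusted p = 0.002) and with all 9 MDCK-II libraries and the block (0.033). It was also called without treated replicate 1 and with no block (0.042). The co-receptor TGFBR3, chosen in the same way, fell by 1.47 ± 0.42 (adjusted p = 0.048). The remaining rises, SMAD3 (log2 change 0.56, adjusted p = 0.023) and SMAD9 (log2 change 1.47, adjusted p = 0.014), transducers of the TGFb and BMP branches chosen likewise, lost their calls without replicate 3 (0.055 and 0.054 as adjusted p). Of 12 feedback and extracellular inhibitors, 9 rose and 1 fell, with a median of 1.08. SMAD7, which targets the receptor for degradation, was at 3.12, 1.91 and 2.53 CPM untreated and 22.6, 27.4 and 28.2 CPM with TGFb (log2 change 3.41 ± 0.23, adjusted p = 6e-04), and PMEPA1, which sequesters SMADs, was at 61.8, 67.8 and 86.6 CPM untreated and 541, 595 and 576 CPM with TGFb (log2 change 3.00 ± 0.12, adjusted p = 0.00017). The member that fell, FST, an activin trap named after its values were seen, was at 75.6, 738 and 625 CPM untreated and 26.7, 91.7 and 43.9 CPM with TGFb (log2 change -2.81, adjusted p = 0.007), with overlapping groups and a low untreated replicate 1.

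Early target genes moved with the inhibitors. Of 11 tested, 8 rose, none fell and the median was 1.08. Beside TGFBI, TAGLN, an actin-binding protein of smooth muscle, was at 0.304, 1.15 and 0.604 CPM untreated and 4.68, 30.4 and 14.99 CPM with TGFb (log2 change 4.57 ± 0.23, adjusted p = 3e-04, or 0.059 as the adjusted p in the unblocked fit of all 24 libraries). NOX4, an oxidase named after its values were seen, was at 1.52, 0.659 and 0.483 CPM untreated and 12.7, 18.1 and 16.5 CPM with TGFb (log2 change 4.17 ± 0.39, adjusted p = 0.0017). Of 10 AP-1 factors, partners of SMADs at many promoters, 4 rose and none fell, or 40% called against 28.4% of all genes. Without replicate 1 there were 5 rises and 4 falls. ATF3 was at 129, 68.0 and 72.9 CPM untreated and 291, 229 and 188 CPM with TGFb (log2 change 1.43 ± 0.13, adjusted p = 0.0016), JUN rose by 0.84 ± 0.10 (adjusted p = 0.0033) and FOSB by 1.34 ± 0.19 (adjusted p = 0.0055). The other rise, FOSL2, named after its values were seen (log2 change 0.43, adjusted p = 0.022), had adjusted p-values of 0.14 without replicate 2 and 0.12 without replicate 3. ATF3, JUN and FOSB had adjusted p-values of 0.092, 0.18 and 0.54 in the unblocked fit of all 24 libraries.

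Epithelial regulators fell, whereas the adhesion genes they are known to sustain were mixed. Of 15 tested epithelial transcription factors and splicing regulators, 10 fell and 1 rose, against 12.7% and 15.7% of all genes, and the median was -0.89. ELF3, an ETS factor of differentiated epithelium, was at 335, 195 and 179.7 CPM untreated and 124, 89.6 and 70.3 CPM with TGFb and fell by 1.301 ± 0.10 (adjusted p = 0.00096). EHF, a related factor, was at 265, 158 and 183 CPM untreated and 133, 88.9 and 101 CPM with TGFb and fell by 0.89 ± 0.09 (adjusted p = 0.0021). GRHL2, which maintains E-cadherin and claudin expression, was at 60.3, 54.5 and 52.4 CPM untreated and 36.5, 27.9 and 25.6 CPM with TGFb and fell by 0.91 ± 0.11 (adjusted p = 0.0033). In all 3 the treated libraries lay below the untreated ones. Chosen after their values were seen, ESRP1, which enforces epithelial splicing, fell by 0.86 ± 0.11 (adjusted p = 0.0045), KLF4 fell by 2.15 ± 0.40 (adjusted p = 0.013), and TFAP2A, the exception, rose by 1.32 ± 0.17 (adjusted p = 0.0044).

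E-cadherin RNA did not pass the test. CDH1, named after its values were seen, was at 1274, 1082 and 1095 CPM untreated and 1082, 1045 and 970.3 CPM with TGFb (log2 change -0.15 ± 0.10, adjusted p = 0.28), and EPCAM, chosen in the same way, was at 521, 389 and 409 CPM untreated and 504, 364 and 419 CPM with TGFb (log2 change -0.04, adjusted p = 0.8). N-cadherin (CDH2, also so chosen) was at 2.05, 6.52 and 7.24 CPM untreated and 16.5, 17.7 and 13.9 CPM with TGFb (log2 change 1.71 ± 0.37, adjusted p = 0.02), so both cadherins were present with TGFb. Of 20 tested cadherin and desmosome genes, 9 rose and 3 fell, with a median of 0.27. DSP, the desmosomal plaque protein, was at 663, 615 and 639 CPM untreated and 1149, 1287 and 1262 CPM with TGFb (log2 change 0.95 ± 0.10, adjusted p = 0.0025). CTNNB1, beta-catenin of the adherens junction and the Wnt pathway, was at 724, 633 and 617 CPM untreated and 1167, 1237 and 1216 CPM with TGFb (log2 change 0.88 ± 0.11, adjusted p = 0.0034). NECTIN1, an adhesion molecule, rose by 1.18 ± 0.15 (adjusted p = 0.0041). As for every called gene, these 3 rises held in each pair, and as for most called genes their groups did not overlap. The 3 falls were CDH16, a kidney cadherin, at 21.4, 1.39 and 2.05 CPM untreated and 1.24, 0.311 and 0.476 CPM with TGFb (log2 change -3.13, adjusted p = 0.0069), and, named after their values were seen, NECTIN3 (log2 change -0.57, adjusted p = 0.041) and PERP (log2 change -0.41, adjusted p = 0.029). Untreated replicate 1 was far above the other untreated libraries for CDH16, whose adjusted p was 0.07 without the block. NECTIN3 had an adjusted p of 0.11 without the block and 0.2 without replicate 3, where PERP had 0.17.

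Among tight junction genes both cingulins fell. Of 18 tested, 5 fell and 1 rose (3 fell without replicate 3, and 4 rose without replicate 1), with a median of -0.21. Together 33.3% were called, against 28.4% of all genes. Cingulin (CGN), which links the junction to actomyosin, was at 247, 215 and 213 CPM untreated and 115, 90.3 and 98.0 CPM with TGFb and fell by 1.16 ± 0.09 (adjusted p = 0.00095). Its paralogue CGNL1 was at 96.9, 45.4 and 65.1 CPM untreated and 37.4, 23.7 and 11.5 CPM with TGFb and fell by 1.54 ± 0.28 (adjusted p = 0.012). CLDN3, a sealing claudin, was at 113, 86.7 and 81.7 CPM untreated and 67.8, 49.8 and 46.3 CPM with TGFb and fell by 0.78 ± 0.09 (adjusted p = 0.0032). CGN fell evenly in the 3 pairs, while CGNL1 varied widely among treated libraries. TJP3, the single rise, named after its values were seen, was at 73.1, 31.0 and 27.5 CPM untreated and 87.3, 75.7 and 73.5 CPM with TGFb (log2 change 0.98 ± 0.24, adjusted p = 0.028), high already in untreated replicate 1. Its adjusted p was 0.14 without the block and 0.11 without replicate 3, and CLDN3 and CGNL1 had adjusted p-values of 0.073 and 0.068 in the unblocked fit of all 24 libraries. The other falls, named after their values were seen, were OCLN, occludin (log2 change -0.49, adjusted p = 0.023), and CLDN16, a claudin of renal magnesium transport (log2 change -0.57, adjusted p = 0.022), and without replicate 3 their adjusted p-values were 0.2 and 0.15. TJP1, a general scaffold so named, was at a log2 change of 0.27 (adjusted p = 0.073).

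Apical polarity genes were near the background, with 5 rises and 2 falls of 20, or 35% called against 28.4% of all genes. PODXL, a sialomucin of the apical surface, rose by 0.70 ± 0.09 (adjusted p = 0.0048), and RAB11FIP1, of apical recycling, by 0.68 ± 0.09 (adjusted p = 0.0053). MAL2, needed for transcytosis to the apical membrane, was at 26.0, 42.8 and 39.7 CPM untreated and 13.8, 11.8 and 8.69 CPM with TGFb and fell by 1.64 ± 0.25 (adjusted p = 0.0065). The other rises were LLGL2 (log2 change 0.52, adjusted p = 0.047), RAB25 (log2 change 0.53, adjusted p = 0.018) and ST14 (log2 change 0.41, adjusted p = 0.042) and the other fall was PARD6B (log2 change -0.39, adjusted p = 0.031), all named after their values were seen and none called without replicate 3. Without replicate 1 the list counted 9 rises and 4 falls of 20, and without replicate 3 it had 1 rise of 21. RAB11FIP1 lost its call without replicate 3 (adjusted p = 0.055) and PODXL in the unblocked fit of all 24 libraries (0.066). Among 9 tested intermediate filament genes, 3 rose and 1 fell, or 44.4% called against 28.4% of all genes. KRT14, a basal keratin named after its values were seen, rose by 2.56 ± 0.73 (adjusted p = 0.047), and dropping the block gave 0.077. SYNM, synemin, was at 1.90, 4.16 and 3.38 CPM untreated and 8.21, 11.2 and 9.64 CPM with TGFb (log2 change 1.65 ± 0.22, adjusted p = 0.0044), and LMNB1, a nuclear lamin, was at 447, 542 and 612 CPM untreated and 306, 299 and 359 CPM with TGFb and fell by 0.72 ± 0.10 (adjusted p = 0.0054). KRT19, a simple-epithelial keratin, was at 2396, 1492 and 1382 CPM untreated and 2939.7, 1962 and 1728 CPM with TGFb (log2 change 0.34 ± 0.10, adjusted p = 0.045), with adjusted p-values of 0.45 without the block, 0.33 without replicate 2 and 0.28 without replicate 3. Vimentin (VIM), the textbook mesenchymal filament and named after its values were seen, was already abundant untreated and not called, at 3286, 6006 and 5649.6 CPM untreated and 5623, 7614 and 6557 CPM with TGFb (log2 change 0.44 ± 0.14, adjusted p = 0.063). VIM was called by the DESeq2 Wald test (adjusted p = 0.021), with no filter on low counts (0.045) and without replicate 1 (0.027).

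**Figure D2:**
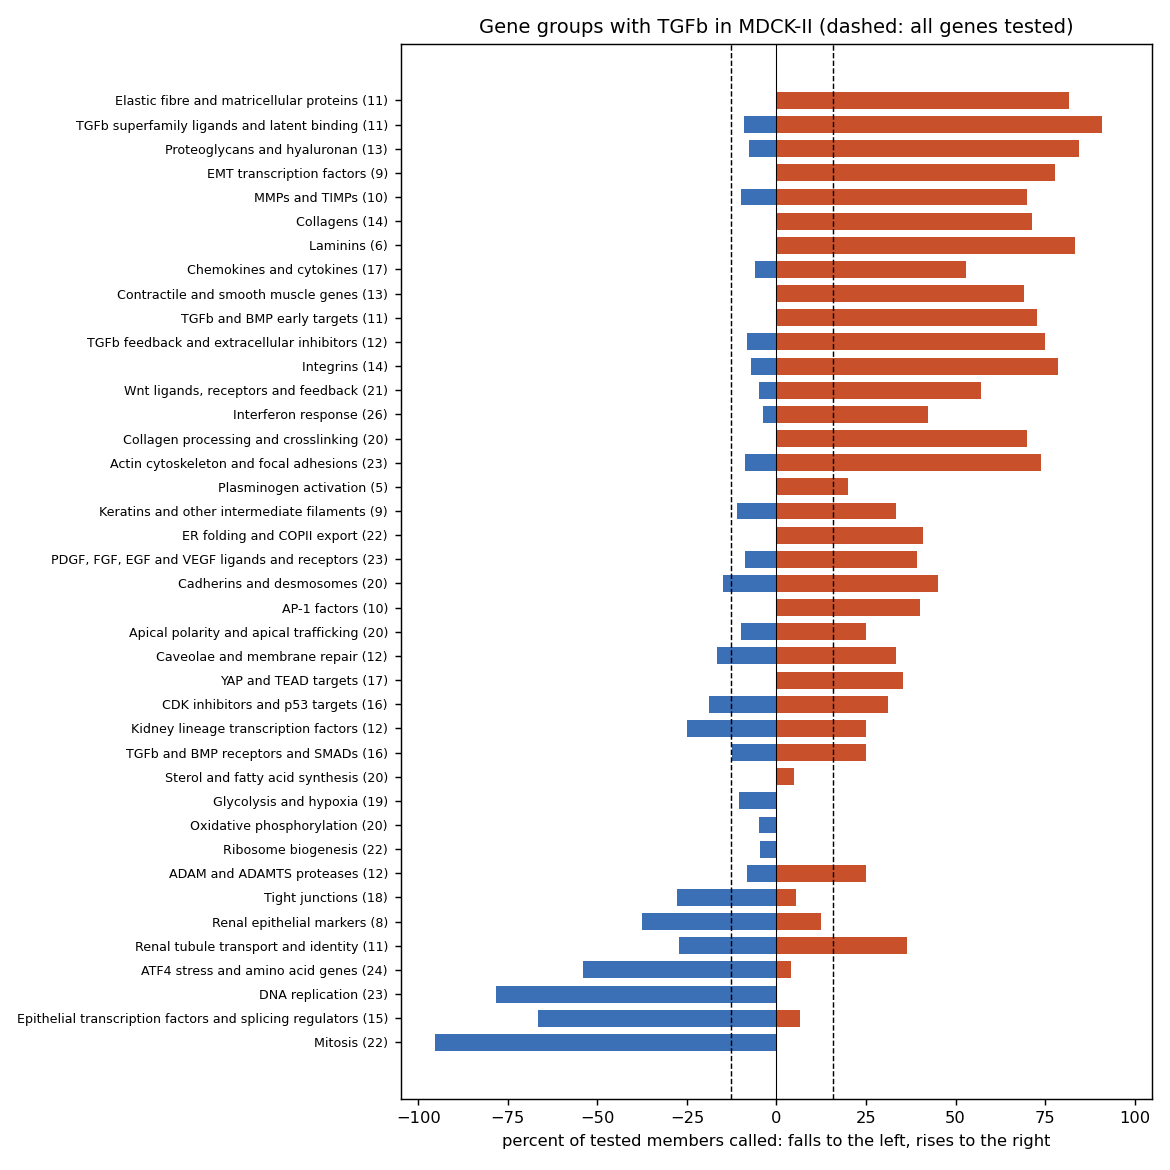
For each gene group with at least 5 tested members (number in brackets), the bar to the right gives the percent of tested members called as rises and the bar to the left the percent called as falls. Dashed lines mark all genes tested, 15.7% and 12.7%. Groups are ordered by median log2 fold change, from elastic fibre and matricellular proteins at the top to mitosis at the bottom.

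Contractile and adhesion genes rose. Of 22 contractile and smooth muscle genes in the table, 13 were tested. Of these, 9 rose and none fell (2 of 14 fell without replicate 1), with a median of 1.11, but several stayed low. TAGLN, ACTA2, CNN2 and CALD1 passed the filter only through their treated libraries, so falls among them could hardly be seen. ACTA2, smooth muscle actin, was at 0.152, 0.278 and 0.121 CPM untreated and 1.53, 13.5 and 7.02 CPM with TGFb (log2 change 5.25 ± 0.44, adjusted p = 0.0012). The calponin CNN2 was at 0, 0.173 and 0.362 CPM untreated and 4.10, 10.1 and 9.40 CPM with TGFb (log2 change 5.64 ± 0.45, adjusted p = 0.00096). Among treated libraries, ACTA2 and TAGLN were lowest in replicate 1 and highest in replicate 2. CALD1, caldesmon and named after its values were seen, had no untreated count and 1.34, 8.01 and 6.78 CPM with TGFb, at least 104-fold higher by the same floor. Of 23 actin cytoskeleton and focal adhesion genes, 17 rose and 2 fell, with a median of 0.61. TNS1, tensin 1, was at 98.8, 50.9 and 47.8 CPM untreated and 319.9, 361 and 314 CPM with TGFb (log2 change 2.41 ± 0.24, adjusted p = 0.0019). The septin regulator CDC42EP3 rose by 1.77 ± 0.14 (adjusted p = 0.00091), and the focal adhesion adaptor PXN by 0.93 ± 0.10 (adjusted p = 0.0023). The falls, named after their values were seen, were TNS3, tensin 3 (log2 change -0.79, adjusted p = 0.0035), and the formin DIAPH3 (log2 change -1.20, adjusted p = 0.0039), so the tensins moved in both directions. Without replicate 3 the rises of this list numbered 10.

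Matrix genes rose across their families. Among 14 tested collagens 10 rose and none fell, with a median of 1.35, while 14 of the 28 on the list were under the filter, among them COL1A1, COL1A2 and COL3A1. COL12A1, a fibril-associated collagen, was at 5.10, 3.64 and 3.02 CPM untreated and 412, 556 and 431 CPM with TGFb (log2 change 6.91 ± 0.22, adjusted p = 0.00011). The basement membrane chain COL4A1 was at 34.6, 38.5 and 30.3 CPM untreated and 233, 256 and 323 CPM with TGFb (log2 change 2.95 ± 0.17, adjusted p = 0.00039), and COL4A2, its partner chain, at 34.4, 38.4 and 23.8 CPM untreated and 194, 229 and 245 CPM with TGFb (log2 change 2.79 ± 0.19, adjusted p = 0.00065). The partner chains rose by like amounts, and for neither did the groups overlap. COL5A1, a fibril nucleator named after its values were seen, was at 82.6, 36.7 and 36.7 CPM untreated and 328, 362 and 428 CPM with TGFb (log2 change 2.94 ± 0.32, adjusted p = 0.0025). Of 20 collagen processing genes, 14 rose and none fell, with a median of 0.70. BMP1, which cleaves procollagen, was at 30.9, 33.8 and 34.4 CPM untreated and 229, 306 and 273 CPM with TGFb (log2 change 3.02 ± 0.11, adjusted p = 0.00013). The lysyl hydroxylase PLOD1 rose by 1.92 ± 0.12 (adjusted p = 0.00048) and the prolyl hydroxylase P4HA2 by 1.45 ± 0.09 (adjusted p = 0.00056).

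Glycoproteins of the provisional matrix rose as well. Of 11 tested elastic fibre and matricellular genes, 9 rose and none fell, with a median of 2.13, and 16 of the 27 in the table were under the filter. Fibronectin (FN1) was at 485, 953 and 682 CPM untreated and 7351, 15626 and 9329.6 CPM with TGFb (log2 change 3.91 ± 0.12, adjusted p = 0.00011). Thrombospondin 1 (THBS1), which can activate latent TGFb, was at 287, 357 and 426 CPM untreated and 2629.8, 4670.3 and 4895 CPM with TGFb (log2 change 3.48 ± 0.14, adjusted p = 0.00017). TNXB, a tenascin, rose by 2.40 ± 0.10 (adjusted p = 2e-04). Of 13 proteoglycan and hyaluronan genes, 11 rose and 1 fell, with a median of 1.59. Versican (VCAN) was at 12.6, 17.9 and 21.7 CPM untreated and 247, 202 and 253 CPM with TGFb (log2 change 3.77 ± 0.19, adjusted p = 0.00028). The cell-surface heparan sulphate carriers SDC1 and GPC1 rose by 1.36 ± 0.09 (adjusted p = 0.00064) and 1.79 ± 0.13 (adjusted p = 0.00077). HAS2, which makes hyaluronan and was named after its values were seen, was at 0.152, 2.19 and 1.81 CPM untreated and 6.68, 13.3 and 12.02 CPM with TGFb (log2 change 3.05 ± 0.41, adjusted p = 0.0048). HMMR, a hyaluronan-binding protein also of the mitotic spindle and so chosen, fell by 1.06 ± 0.13 (adjusted p = 0.0033).

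Laminins and integrins, their receptors, rose as well. Of 6 tested laminin chains 5 rose and none fell. LAMA3, the alpha chain of epithelial laminin-332, was at 167, 417 and 396 CPM untreated and 1343, 2821 and 2265 CPM with TGFb (log2 change 2.76 ± 0.13, adjusted p = 0.00024), its partner LAMB3 rose by 1.28 ± 0.10 (adjusted p = 0.001), and LAMB1 by 1.16 ± 0.09 (adjusted p = 0.00095). LAMC1, named after its values were seen, rose by 0.82 ± 0.12 (adjusted p = 0.0054). Of 14 integrins, 11 rose and 1 fell, with a median of 1.02. ITGB6, the epithelial subunit that activates latent TGFb, was at 46.6, 63.3 and 62.2 CPM untreated and 377, 425 and 459 CPM with TGFb (log2 change 2.88 ± 0.10, adjusted p = 0.00013). ITGA5, of the fibronectin receptor, was at 4.03, 4.02 and 4.83 CPM untreated and 45.6, 103 and 82.7 CPM with TGFb (log2 change 4.15 ± 0.24, adjusted p = 4e-04). ITGB3 was at 458, 490.3 and 605 CPM untreated and 1504, 1608 and 1615 CPM with TGFb (log2 change 1.62 ± 0.11, adjusted p = 0.00064). ITGAV, the partner of both beta chains and named after its values were seen, rose by 1.78 ± 0.21 (adjusted p = 0.0032). The laminin receptor chain ITGA7, so chosen as the single fall of the list, was at 1.75, 1.56 and 1.33 CPM untreated and 0.286, 0.311 and 0.238 CPM with TGFb and fell by 2.41 ± 0.38 (adjusted p = 0.0079).

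Most matrix metalloproteinases and their TIMP inhibitors rose. Of 10 tested MMPs and TIMPs, 7 rose, 3 of them without the block, and TIMP1 fell. TIMP4 was at 0.761, 1.11 and 0.724 CPM untreated and 5.82, 9.60 and 9.28 CPM with TGFb (log2 change 3.18 ± 0.26, adjusted p = 0.00099), opposite in direction to TIMP1. Named after their values were seen, MMP9, a gelatinase, was at 0.837, 2.71 and 3.50 CPM untreated and 8.97, 62.5 and 16.4 CPM with TGFb (log2 change 3.62 ± 0.45, adjusted p = 0.0037) and MMP14, a membrane collagenase, at 14.1, 4.65 and 3.98 CPM untreated and 24.8, 16.8 and 18.9 CPM with TGFb (log2 change 1.57 ± 0.28, adjusted p = 0.011), with an adjusted p of 0.07 for MMP14 without the block. Of 12 ADAM and ADAMTS proteases, 3 rose and 1 fell, with a median of -0.16. That is 33.3% called, near the 28.4% of all genes. ADAMTS2, a procollagen peptidase, rose by 2.51 ± 0.25 (adjusted p = 0.002) and ADAMTS7 by 2.19 ± 0.35 (adjusted p = 0.0081), and ADAM10, named after its values were seen, by 0.41 ± 0.09 (adjusted p = 0.018), whereas ADAMTS9, a versican-cleaving protease, was at 67.9, 128 and 123 CPM untreated and 33.2, 43.7 and 41.9 CPM with TGFb and fell by 1.38 ± 0.14 (adjusted p = 0.0019). ADAM10 lost its call without replicate 3 (adjusted p = 0.19). In the plasminogen system neither the urokinase receptor PLAUR nor SERPINE2, a protease nexin, was called: PLAUR was at 3.58, 22.7 and 20.9 CPM untreated and 16.7, 34.4 and 21.9 CPM with TGFb (log2 change 0.85, adjusted p = 0.14) and SERPINE2 at 48.8, 102 and 98.9 CPM untreated and 85.6, 119 and 92.3 CPM with TGFb (log2 change 0.31, adjusted p = 0.24). Untreated replicate 1 was low in both. PLAUR was called as a rise by the DESeq2 Wald test (adjusted p = 0.031), without replicate 1 (0.041) and without replicate 2 (0.026).

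Of 21 tested Wnt ligands, receptors and feedback genes, 12 rose and 1 fell, with a median of 0.91. WNT5A, a non-canonical ligand, was at 0.0761, 0.208 and 0.362 CPM untreated and 5.35, 13.99 and 12.1 CPM with TGFb (log2 change 5.74 ± 0.32, adjusted p = 0.00037). FZD2, a receptor, was at 27.2, 12.3 and 13.3 CPM untreated and 120.4, 94.2 and 73.4 CPM with TGFb (log2 change 2.52 ± 0.17, adjusted p = 0.00066). WNT7B, a ligand of kidney medulla development named after its values were seen, was at 2.59, 7.98 and 7.48 CPM untreated and 31.6, 36.0 and 40.2 CPM with TGFb (log2 change 2.64 ± 0.27, adjusted p = 0.0022), and the fall, TCF7, so chosen, was at a log2 change of -0.93 (adjusted p = 0.0048). Without replicate 3 the rises of the Wnt list numbered 7 of 22. Of 17 YAP and TEAD genes, 6 rose and none fell, or 2 fell without replicate 1. The called share was 35.3%, against 28.4% of all genes. ANKRD1 was at 2.82, 23.4 and 20.8 CPM untreated and 119.6, 207 and 163 CPM with TGFb (log2 change 3.65 ± 0.45, adjusted p = 0.0036), AMOTL2 rose by 1.37 ± 0.15 (adjusted p = 0.0025) and GADD45B by 1.78 ± 0.12 (adjusted p = 0.00064). YAP1 itself was at a log2 change of 0.08 (adjusted p = 0.58).

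Of 23 growth factor ligands and receptors, 9 rose and 2 fell, or 47.8% called against 28.4% of all genes. The falls were VEGFC (log2 change -0.59, adjusted p = 0.015, 0.15 without replicate 3) and PDGFC (log2 change -0.90, adjusted p = 0.05 after rounding), both named after their values were seen. PDGFC lost its call by the DESeq2 Wald test (adjusted p = 0.083), without the block (0.16), with all 9 MDCK-II libraries and the block (0.1), without replicate 1 (0.084) and without replicate 3 (0.18). The falls of this list numbered 4 of 23 without replicate 1 and 0 without replicate 3. PDGFB, a platelet-derived growth factor, was at 21.0, 31.5 and 29.2 CPM untreated and 99.3, 169 and 120.3 CPM with TGFb (log2 change 2.24 ± 0.12, adjusted p = 0.00031). FLT1, a VEGF receptor, was at 93.4, 134 and 156 CPM untreated and 329.7, 421 and 392 CPM with TGFb (log2 change 1.60 ± 0.12, adjusted p = 0.00086), and FGFR1 rose by 1.52 ± 0.12 (adjusted p = 0.00089). PDGFRA, a receptor also used as a fibroblast marker, was at 7.84, 1.32 and 0.845 CPM untreated and 49.1, 51.0 and 14.2 CPM with TGFb (log2 change 3.87 ± 0.52, adjusted p = 0.0047). Of the fibroblast markers it made up most of the sum, which was 0.845 to 7.84 CPM untreated and 14.6 to 51.4 CPM with TGFb, with DCN, LUM and FAP at 0 and PDGFRB counted only with TGFb. FLT1 likewise made up most of the endothelial sum, 96.3 to 160 CPM untreated and 335 to 431 CPM with TGFb. KDR, another VEGF receptor, was at 1.83, 4.30 and 3.50 CPM untreated and 3.53, 9.17 and 9.16 CPM with TGFb (log2 change 1.14 ± 0.20, adjusted p = 0.011), with overlapping groups and an adjusted p of 0.11 without the block and 0.093 without replicate 3. Among the other endothelial markers, TEK and ERG had counts only with TGFb. VWF was not called, but it was called as a rise without replicate 1 (log2 change 1.805, adjusted p = 0.042). What part cells of these types have in the results was not tested.

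Chemokine and cytokine genes included large rises from low levels. Of 17 tested, 9 rose (4 without the block) and 1 fell, with a median of 1.19. CXCR4, the receptor of CXCL12, was at 0.304, 0.902 and 0.241 CPM untreated and 12.2, 20.4 and 18.3 CPM with TGFb (log2 change 4.94 ± 0.30, adjusted p = 0.00049). ACKR3, a scavenging receptor of the same ligand, was at 0.304, 0.347 and 0.483 CPM untreated and 20.3, 20.5 and 11.2 CPM with TGFb (log2 change 5.64 ± 0.30, adjusted p = 0.00033). Both receptors were close to undetected untreated. CX3CL1, a membrane-bound chemokine, was at 42.9, 41.5 and 39.1 CPM untreated and 114, 100.2 and 95.3 CPM with TGFb (log2 change 1.32 ± 0.10, adjusted p = 0.00077). The cytokine IL1A, named after its values were seen, was at 0.152, 0.243 and 0 CPM untreated and 2.86, 6.38 and 3.69 CPM with TGFb (log2 change 4.78 ± 0.46, adjusted p = 0.0018), and CXCL10, the single fall and so chosen, was at 23.3, 14.7 and 13.3 CPM untreated and 2.67, 8.01 and 3.93 CPM with TGFb (log2 change -1.79, adjusted p = 0.024, or 0.055 as the adjusted p without replicate 3). Over this list the median log2 difference of untreated replicate 1 from the other untreated libraries was -1.18. Without replicate 1 the list counted 11 rises and 4 falls of 19, with a median of 0.41, and without replicate 2 it had 8 rises and 3 falls of 17, with a median of 0.61.

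Interferon response genes rose in part. Of 26 tested, 11 rose and 1 fell, with a median of 0.81. IFIH1, an RNA sensor, was at 123, 72.4 and 81.2 CPM untreated and 196, 212 and 164 CPM with TGFb (log2 change 1.08 ± 0.17, adjusted p = 0.0082). MX2 was at 12.5, 1.56 and 3.26 CPM untreated and 44.1, 27.4 and 16.4 CPM with TGFb (log2 change 2.72 ± 0.45, adjusted p = 0.0086), and OAS1 at 141, 39.2 and 52.6 CPM untreated and 279, 264 and 223 CPM with TGFb (log2 change 1.94 ± 0.33, adjusted p = 0.0097). The fall was ISG20, an exonuclease named after its values were seen (log2 change -1.63, adjusted p = 0.023). In each of the 3 named rises untreated replicate 1 was the highest untreated library. Over the list it exceeded the other untreated libraries by a median log2 of 1.28. The list counted 18 rises and 3 falls of 27 without replicate 1, 5 rises and 1 fall of 27 without replicate 3, and 3 rises of 26 without the block. MX2 had an adjusted p of 0.057 without the block.

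Cell division genes fell as a group. Of 22 tested mitotic genes, 21 fell and none rose, with a median of -1.08, against 12.7% of all genes. AURKB, the kinase of the chromosomal passenger complex, was at 34.3, 41.5 and 43.9 CPM untreated and 15.9, 18.04 and 18.1 CPM with TGFb and fell by 1.20 ± 0.11 (adjusted p = 0.0014). NDC80, of the kinetochore, was at 36.7, 39.2 and 45.4 CPM untreated and 16.04, 14.7 and 22.0 CPM with TGFb and fell by 1.23 ± 0.12 (adjusted p = 0.0019). KIF11, the spindle motor, was at 129, 177 and 188 CPM untreated and 65.2, 65.6 and 89.1 CPM with TGFb and fell by 1.17 ± 0.12 (adjusted p = 0.0021). Every treated library lay below every untreated one in these 3 genes. MKI67, named after its values were seen, was at 234, 354 and 354 CPM untreated and 129, 128 and 169 CPM with TGFb and fell by 1.13 ± 0.14 (adjusted p = 0.0033). Of 23 DNA replication genes, 18 fell and none rose, with a median of -0.87. RFC3 and RFC4, subunits of the clamp loader, changed by -1.42 and -1.20, and TYMS, which makes thymidylate, was at 83.5, 122 and 114 CPM untreated and 53.9, 49.1 and 61.5 CPM with TGFb and fell by 0.95 ± 0.15 (adjusted p = 0.0073). MCM2, a subunit of the replicative helicase named with its values known, was at 85.1, 176 and 161 CPM untreated and 63.5, 64.4 and 76.5 CPM with TGFb (log2 change -0.99, adjusted p = 0.016).

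Size and calls of these falls varied with the replicate. Pair medians for DNA replication were -0.39, -1.20 and -0.84, and untreated replicate 1 lay 0.87 below the other untreated libraries over that list. Without replicate 1, 22 of 22 mitotic and 22 of 23 replication genes fell, and without replicate 3 the counts were 16 and 6, with MCM2 at an adjusted p of 0.065. In the unblocked fit of all 24 libraries, 0 of 22 mitotic genes and 5 of 23 replication genes were called, with medians of -1.13 and -0.88. Among 16 tested CDK inhibitors and p53 targets, 5 rose and 3 fell, or 50% called against 28.4% of all genes. This list had 2 rises without the block, 5 falls without replicate 1, and 3 rises and 1 fall without replicate 3. CDKN1A, which encodes the inhibitor p21, was at 161, 374 and 317 CPM untreated and 884, 1015 and 1176 CPM with TGFb (log2 change 1.93 ± 0.20, adjusted p = 0.0022), and ZMAT3 rose by 1.02 ± 0.15 (adjusted p = 0.0062). CDKN2C, another CDK inhibitor, fell by 1.11 ± 0.16 (adjusted p = 0.0055). Named after their values were seen, BTG2 (log2 change 0.76, adjusted p = 0.029) and cyclin D2 (CCND2, 0.54 with an adjusted p of 0.042) rose and the stress genes GADD45A (log2 change -0.70, adjusted p = 0.015) and SESN2 (log2 change -0.68, adjusted p = 0.027) fell, and none of these 4 was called without replicate 3. Cyclin D1 (CCND1), named after its values were seen, was at 16.1, 77.4 and 63.5 CPM untreated and 82.0, 133 and 111 CPM with TGFb (log2 change 1.27 ± 0.32, adjusted p = 0.031, or 0.18 as the adjusted p without the block).

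**Figure D3:**
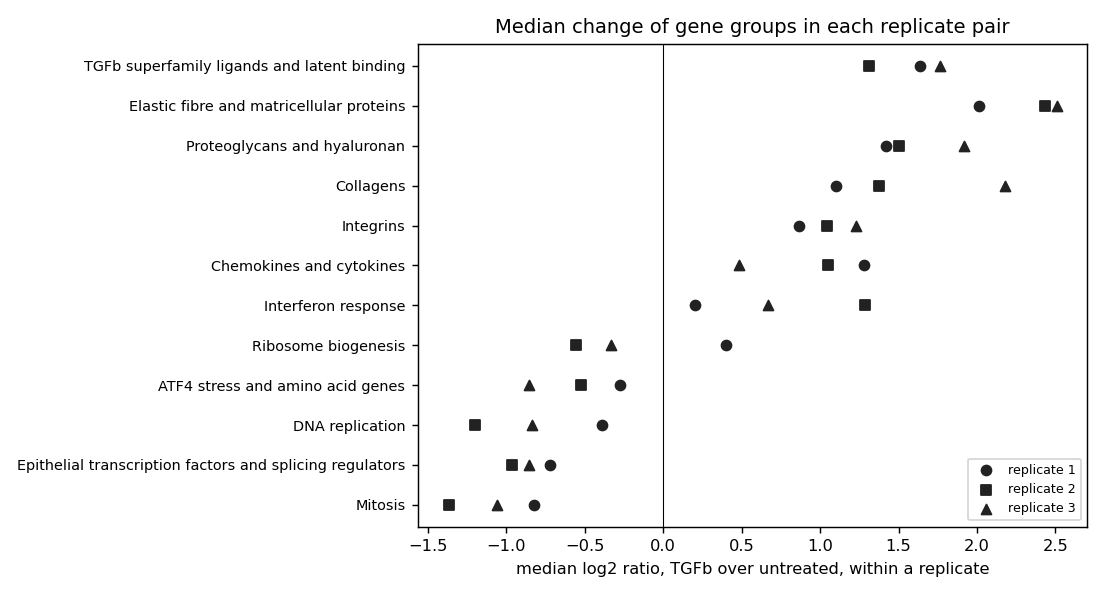
Median log2 ratio of TGFb over untreated within each replicate pair, for 12 gene groups, with the symbol giving the replicate. The 3 matrix groups (elastic fibre, proteoglycan and collagen genes) lie above 1 in every pair and mitosis between -1.37 and -0.82, whereas ribosome biogenesis is at 0.40 in replicate 1 and at -0.56 and -0.34 in replicates 2 and 3.

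Among called genes, most stress genes fell and the secretory ones rose. Of 24 ATF4 and amino acid genes, 13 fell and 1 rose, with a median of -0.55, and the falls numbered 5 without replicate 3. ATF5 was at 103, 23.5 and 40.8 CPM untreated and 16.2, 8.32 and 6.90 CPM with TGFb and fell by 2.22 ± 0.25 (adjusted p = 0.0028). DDIT3, which encodes CHOP, was at 33.5, 23.6 and 26.4 CPM untreated and 9.45, 9.99 and 10.2 CPM with TGFb and fell by 1.47 ± 0.16 (adjusted p = 0.0024). CEBPB was at 52.3, 62.2 and 66.0 CPM untreated and 28.6, 33.6 and 24.4 CPM with TGFb and fell by 1.05 ± 0.14 (adjusted p = 0.0048). In ATF5 the untreated libraries were far apart, with replicate 1 the highest, and in DDIT3 the treated ones were nearly equal. SLC7A5, an amino acid transporter and the single rise, named after its values were seen, was at a log2 change of 0.52 (adjusted p = 0.016), or 0.076 as the adjusted p without replicate 3. Of 22 ER folding and COPII export genes, 9 rose, none fell and 13 were not called, with a median of 0.33. That is 40.9% called, against 28.4% of all genes. The rises numbered 14 without replicate 1, 5 without replicate 2 and 1 without replicate 3. CREB3L2, a regulator of secretory capacity for collagen, was at 40.2, 55.9 and 62.9 CPM untreated and 102, 131 and 115 CPM with TGFb (log2 change 1.15 ± 0.12, adjusted p = 0.0025), SEC31A, of the COPII coat, rose by 0.63 ± 0.10 (adjusted p = 0.0075) and the chaperone CALR by 0.71 ± 0.12 (adjusted p = 0.0094). Without replicate 3, SEC31A and CALR had adjusted p-values of 0.064 and 0.073.

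Few genes of core metabolism were called. Of 20 sterol and fatty acid genes 1 was called, INSIG1, which restrains sterol synthesis, at 872, 527 and 453 CPM untreated and 1249.5, 1098 and 909 CPM with TGFb (log2 change 0.86 ± 0.13, adjusted p = 0.0074, 0.064 without the block). DHCR7 was at a log2 change of 0.43 (adjusted p = 0.051) and LSS at a log2 change of 0.27 (adjusted p = 0.11). Of 19 glycolysis and hypoxia genes 2 fell, the hexokinase HK2 (log2 change -0.71, adjusted p = 0.0061) and the lactate exporter SLC16A3 (log2 change -1.04, adjusted p = 0.0045, 0.2 without the block), and ENO1 was at a log2 change of -0.36 (adjusted p = 0.059). NDUFV1, a subunit of complex I, was the single called gene of 20 in oxidative phosphorylation (log2 change -0.60, adjusted p = 0.0073, 0.095 without replicate 3), with SDHB at a log2 change of -0.28 (adjusted p = 0.069) and ATP5MC1 at a log2 change of 0.32 (adjusted p = 0.065). UTP20 was the single called gene of 22 in ribosome biogenesis (log2 change -0.68, adjusted p = 0.0067), and FBL and RRP9 were at a log2 change of -0.48 (adjusted p = 0.13) and -0.39 (adjusted p = 0.14). These counts depended on replicate 1. Without it 17 of the 22 ribosome biogenesis genes, 6 of the 20 oxidative phosphorylation genes, 5 of the 19 glycolysis genes and 3 of the 20 sterol genes fell, while 6 glycolysis, 5 sterol and 1 oxidative phosphorylation gene rose. Without replicate 3 no ribosome biogenesis gene was called, with UTP20 at an adjusted p of 0.065.

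Renal identity genes moved in both directions. Of 27 tubule transport genes in the table, 11 were tested. Of these, 4 rose and 3 fell, or 63.6% called against 28.4% of all genes. CA12, a carbonic anhydrase, was at 26.5, 23.4 and 22.1 CPM untreated and 284, 258 and 287 CPM with TGFb (log2 change 3.52 ± 0.11, adjusted p = 0.00011). SLC12A2, the basolateral sodium-potassium-chloride cotransporter, was at 243, 154 and 176 CPM untreated and 607, 650.1 and 568 CPM with TGFb (log2 change 1.70 ± 0.16, adjusted p = 0.0016). Carbonic anhydrase 2 (CA2), named after its values were seen, rose by 1.60 ± 0.26 (adjusted p = 0.0081). The falls, named after their values were seen, were ATP6V1B1, a proton pump subunit (log2 change -0.81, adjusted p = 0.0045), the water channel AQP3 (log2 change -1.86, adjusted p = 0.018), and FXYD2, a sodium pump subunit (log2 change -2.66, adjusted p = 0.0099). AQP3 had an adjusted p of 0.069 without replicate 3. Of 12 kidney lineage transcription factors, 3 rose and 3 fell, or 50% called against 28.4% of all genes. This list had 5 rises without replicate 1 and 1 fall without replicate 3. OSR1 was at 139, 62.8 and 69.2 CPM untreated and 31.4, 13.6 and 15.6 CPM with TGFb and fell by 2.17 ± 0.10 (adjusted p = 2e-04). GATA3, a factor of the ureteric lineage, was at 57.9, 49.4 and 53.2 CPM untreated and 142, 146 and 184 CPM with TGFb (log2 change 1.55 ± 0.12, adjusted p = 0.00097), and LHX1 rose by 1.49 ± 0.14 (adjusted p = 0.0018). TFCP2L1, of the collecting duct and named after its values were seen, rose by 1.17 ± 0.16 (adjusted p = 0.005), and PAX2, so named, fell (log2 change -0.52, adjusted p = 0.045), but without replicate 3 its adjusted p was 0.31. PAX8, a marker of renal epithelium, was at 335, 169 and 179 CPM untreated and 144, 136 and 121 CPM with TGFb (log2 change -0.70 ± 0.18, adjusted p = 0.034), with adjusted p-values of 0.078 without the block and 0.09 without replicate 3. Of 12 caveolar and membrane repair genes, 4 rose and 2 fell, or 50% called against 28.4% of all genes. ANXA6 rose by 2.34 ± 0.34 (adjusted p = 0.0061) and CAVIN1 by 0.80 ± 0.12 (adjusted p = 0.007). Dropping the block took the adjusted p of CAVIN1 to 0.081. Named after their values were seen, EHD2 rose by 0.64 ± 0.13 (adjusted p = 0.017) and the membrane repair protein DYSF, dysferlin, by 1.13 ± 0.25 (adjusted p = 0.021). The falls were PACSIN3 (log2 change -0.64, adjusted p = 0.015) and, named after its values were seen, CAVIN2 (log2 change -1.07, adjusted p = 0.03). Without replicate 3 the adjusted p was 0.14 for PACSIN3, 0.11 for CAVIN2 and 0.079 for DYSF, and without replicate 2 it was 0.059 for EHD2. The falls among caveolar genes numbered 4 without replicate 1 and 0 without replicate 3.

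Day 0 cultures of the same line place the treated levels, here on a scaling of all 9 MDCK-II libraries. These genes were chosen after their values were seen, so the values are a description without a test. VCAN was at 233, 192 and 224 CPM at day 0, 12.8, 18.2 and 22.1 untreated at day 4 and 251, 206 and 258 with TGFb. CXCR4 was at 29.4, 29.6 and 11.8, then 0.310, 0.919 and 0.246 untreated and 12.5, 20.8 and 18.7 with TGFb. GPC1 was at 102, 92.8 and 83.2, then 25.6, 41.6 and 28.2 untreated and 97.6, 118 and 112 with TGFb. For these rises the treated range overlapped day 0, and the untreated day 4 libraries were the ones that stood apart. Falls with the same pattern were ELF3, at 116, 145 and 135 at day 0, 341, 199 and 183 untreated and 127, 91.4 and 71.8 with TGFb, and DDIT3, at 9.47, 11.7 and 6.50 at day 0, 34.1, 24.0 and 26.9 untreated and 9.63, 10.2 and 10.4 with TGFb. Other genes did not return to day 0 levels. TGFBI was at most 47.4 CPM at day 0 and 2545, 3517 and 3791 with TGFb, and ITGB6 at 138, 119 and 122 at day 0 and 384, 434 and 469 with TGFb. CGNL1 was low at day 0, 3.20, 3.83 and 4.59, and even with TGFb stayed above that at 38.1, 24.1 and 11.8.

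**Figure D4:**
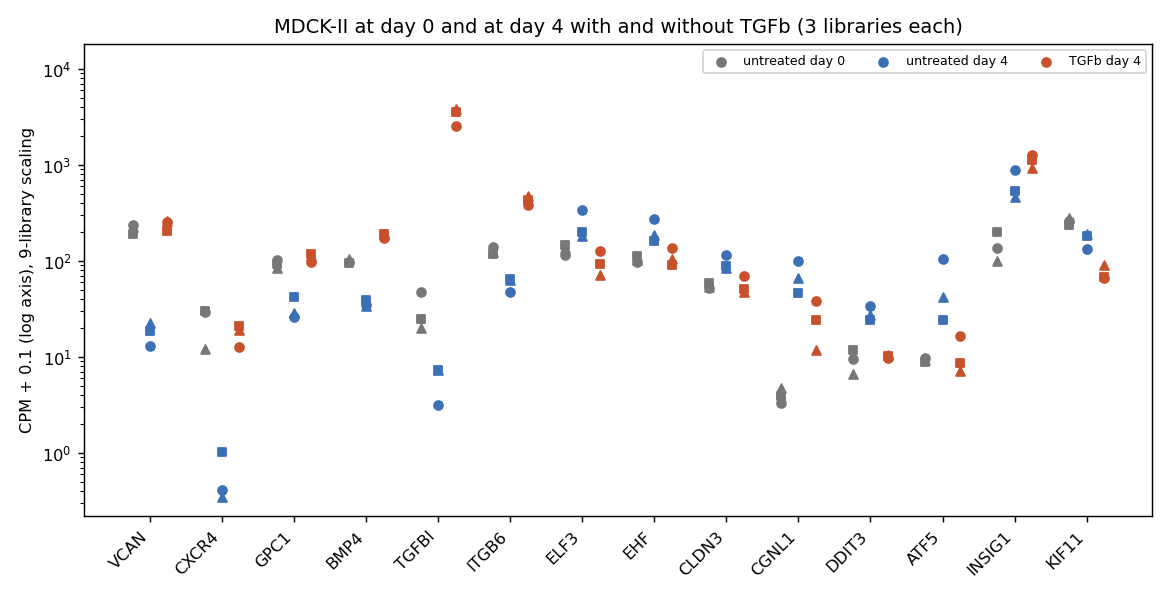
Levels of 14 genes, as CPM with a small constant added on a log axis, in MDCK-II at day 0 (grey), untreated day 4 (blue) and day 4 with TGFb (red), 3 libraries each, with the symbol giving the replicate. VCAN, CXCR4 and GPC1 with TGFb overlap day 0 and exceed untreated day 4, while TGFBI, ITGB6 and BMP4 exceed both.

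Whether the response was particular to MDCK-II was tested as the difference from the TGFb response of MDCK-NBL2, over 12 libraries. Of 12163 genes tested, 48 (0.395%) were called, 30 with the higher response in MDCK-II and 18 with the lower. None of the 9 EMT transcription factors was called, with adjusted p-values from 0.25 to 0.96. The SE of their differences ran from 0.22 (TCF3) to 1.27 (PRRX1), so a missing call does not show that the lines respond alike. SNAI1 differed by 1.54 ± 0.58, SNAI2 by -1.12 ± 1.10 and PRRX1 by -1.29 ± 1.27. Of the genes named above, 7 were called. ACKR3 in MDCK-NBL2 was at 0.643, 0.184 and 0.119 CPM untreated and 0.193, 0.121 and 0.1497 with TGFb, and the difference was 6.72 ± 0.85 (adjusted p = 0.01). BMP4 in MDCK-NBL2 was at 115, 161 and 141 untreated and 133, 108 and 169 with TGFb, with a difference of 2.38 ± 0.25 (adjusted p = 0.0041). In both genes the treated and untreated MDCK-NBL2 libraries overlapped. CX3CL1 in MDCK-NBL2 was at 25.5, 23.1 and 19.7 untreated and 19.3, 14.7 and 15.1 with TGFb, with a difference of 1.80 ± 0.21 (adjusted p = 0.0042). SERPINE2, not called in MDCK-II, was at 195, 113 and 264 untreated and 37.8, 42.0 and 39.1 with TGFb in MDCK-NBL2, with a difference of 2.51 ± 0.46 (adjusted p = 0.049). The tight junction scaffold TJP3 in MDCK-NBL2 was at 89.8, 71.2 and 60.1 untreated and 18.5, 23.6 and 17.5 with TGFb, lower with TGFb in every library, and the difference was 2.74 ± 0.45 (adjusted p = 0.038). TNS3 in MDCK-NBL2 was at 111, 75.7 and 101 untreated and 26.0, 23.9 and 22.3 with TGFb, with a difference of 1.20 ± 0.21 (adjusted p = 0.046). DYSF, close to undetected in untreated MDCK-NBL2, was at 0.241, 0.515 and 0.119 untreated and 43.4, 17.0 and 12.4 with TGFb there, a difference of -5.09 ± 0.74 (adjusted p = 0.027). Leaving out 1 of the 12 libraries at a time ended the calls of SERPINE2 and TJP3 for 9 libraries, of TNS3 for 10 and of DYSF for 5, at adjusted p-values up to 0.16, and that of ACKR3 without treated MDCK-NBL2 replicate 2 or 3 (0.059 and 0.053). In the untreated MDCK-NBL2 group replicate 2 stood apart from its group, and without it 1152 genes were called, all 48 among them. Without it too none of the 9 EMT factors was called, with adjusted p-values from 0.062 for SNAI2 to 0.68. There SNAI2 differed by -2.80 ± 0.85 and SNAI1 by 1.72 ± 0.58 (adjusted p = 0.087).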

How the data were processed

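The deposited table held counts per gene, whole numbers with no normalization, for 32704 dog genes in 24 libraries, of which 18660 carried a symbol. The genome build was CanFam3.1, and FastQC, RSEM 1.3.0 and STAR 2.5.3a are listed, per the submitters' processing notes. Their order, the annotation, the strand setting and any rounding of RSEM estimates are not stated in the labels or headers, so genes sharing reads with near-identical copies or overlapping partners are uncertain. Per the labels, libraries were stranded mRNA. No sequence or genome position is used here.

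The 6 MDCK-II day 4 libraries were fitted alone in edgeR 4.0.16 (R 4.3.3), with TMM scaling, a minimum count of 10 and total of 15 (filterByExpr), and the replicate number as a block. The quasi-likelihood F test was adjusted by Benjamini-Hochberg and called at 0.05, leaving 2 residual degrees of freedom and a biological coefficient of variation of 14.5%. SE was derived by dividing the size of the log2 change by the root of the F statistic. Libraries were paired by replicate number. Deviations from group means correlated at 0.444, 0.290 and 0.306 within numbers, each over 0.1, and at -0.370 to 0.141 across numbers. The highest across numbers, untreated replicate 2 with treated replicate 3, is also over 0.1. No libraries were duplicates, and the fit was tested on simulated data. The difference from MDCK-NBL2 was an interaction over 12 libraries with 8 residual degrees of freedom.

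The 43 gene lists (885 genes, 818 in the table; 2 symbols on 2 identifiers each were left out and 7 were matched by an older name) and the rule for named genes were written with earlier results of these data known. The rule took all EMT transcription factors, the 8 largest rises and falls with a symbol, a mean of 10 CPM or more in either group and groups that do not overlap, and up to 3 members per list by adjusted p. Other genes are marked, and some results under this rule are not reported here. Alternatives were DESeq2 1.42.0 size factors and Wald test, no filter, no block, 9 libraries with the block or 24 without it, single replicates or libraries left out, and a 2-fold minimum.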

Additional observations from a re-analysis of the deposited data

Results flagged for a closer look

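For 7 named genes the response to TGFb in MDCK-II differed from that in MDCK-NBL2 by an edgeR quasi-likelihood test of the difference itself, with Benjamini-Hochberg adjustment. The log2 difference, MDCK-II minus MDCK-NBL2, was 2.38 for BMP4, 6.72 for ACKR3, 1.80 for CX3CL1, 2.51 for SERPINE2, 2.74 for TJP3, 1.20 for TNS3 and -5.09 for DYSF. TJP3, TNS3 and DYSF were named after their values were seen. In MDCK-II, BMP4, ACKR3 and CX3CL1 were higher in 3 of 3 treated libraries than in any untreated one. Without the MDCK-NBL2 library that stands apart the differences were 2.23 (adjusted p = 0.001) for BMP4, 7.12 (adjusted p = 0.002) for ACKR3, 1.77 (adjusted p = 0.0027) for CX3CL1, 2.74 (adjusted p = 0.0038) for SERPINE2, 2.73 (adjusted p = 0.01) for TJP3, 1.32 (adjusted p = 0.0035) for TNS3 and -5.77 (adjusted p = 0.0065) for DYSF. With a replicate block within each line SERPINE2 had an adjusted p of 0.06 and TNS3 of 0.069. TJP3 rose in MDCK-II and was lower with TGFb in all 3 treated MDCK-NBL2 libraries. Why the lines differ was not tested.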

How the results depend on the processing

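The 3327 calls numbered 3334 with DESeq2 size factors, 3031 by the DESeq2 Wald test and 3559 with no filter on low counts. They numbered 3863 with all 9 MDCK-II libraries and the block, and 2626 with all 24 libraries and no block, 2 changes together. Without the replicate block there were 2485 calls, of which 2453 were shared. A minimum change of 2-fold left 1253 calls, 799 rises and 454 falls. Leaving out replicate pairs, or single libraries with no block, gave 914 to 5949 calls, 657 to 3064 rises and 257 to 2885 falls. The fewest came without treated replicate 2 and the most without replicate 1, which stands apart on the second component. The 48 calls of the difference between sublines ranged from 8 to 1152 over the libraries left out. With a block within each subline there were 35, 21 of them shared. Of 202 genes named and tested, 180 were called, 144 stayed called without each pair in turn, 90 under every setting, and none reversed. The unblocked fit of all 24 libraries ended 47 of these calls, those of AURKB, NDC80, KIF11, MKI67, HMMR, DIAPH3, CDKN2C, HK2, CDH2 and KLF4 among them, and in the 6 libraries the lack of a block alone ended 23. In the unblocked fit of all 24 libraries the falls among epithelial regulators numbered 6, the rises among interferon genes 6 and those among ligands 6. The fit has 2 residual degrees of freedom, and genes of few counts (KRT27, SLC22A2, PDLIM3, CALD1, ZEB2) have no firm fold. The causes of these shifts were not tested.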
